A study of Rattus norvegicus with 172 samples.

Results

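The genes of bile acid synthesis and of its feedback control were followed through rat livers exposed to furan or to its methyl derivative 3-methylfuran. The set holds 10 genes, taken by their symbols from the deposited tables: Cyp7a1 (ENSRNOG00000009488), Cyp8b1 (ENSRNOG00000019481), Cyp27a1 (ENSRNOG00000017188), Cyp7b1 (ENSRNOG00000009730), Hsd3b7 (ENSRNOG00000019080), Amacr (ENSRNOG00000018662), Slc27a5 (ENSRNOG00000019626), Baat (ENSRNOG00000007395), Nr0b2 (ENSRNOG00000007229) and Nr1h4 (ENSRNOG00000007197). They are 10 of 32883 genes counted, of which 19777 have a symbol, and 10 of 10 passed the filter on low counts in both experiments.

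Hepatocytes make bile acids from cholesterol by parallel routes. In the classic route Cyp7a1 places the first hydroxyl group and sets the rate, and Cyp8b1 adds the hydroxyl that makes cholic acid. In the alternative route Cyp27a1 oxidises the side chain and Cyp7b1 then acts on the ring. Both routes share later steps, and the finished acids are joined to taurine or glycine before export into bile. Bile acids bind the nuclear receptor FXR, encoded by Nr1h4, which raises SHP, encoded by Nr0b2; SHP lacks a DNA binding domain and represses Cyp7a1 and Cyp8b1 through other receptors such as LRH-1, encoded by Nr5a2.

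The stretches just upstream of 4 of these genes are shown because the first 3 belong to genes called lower at the highest dose of both compounds, and because Nr0b2 encodes the repressor of the feedback loop. Each is the 250 bases before the annotated start, 5′ to 3′ along the gene's strand, from RefSeq on the GRCr8 build; the counts themselves were made on Rnor_6.0. Capitals mark motif matches.
Slc27a5 (chr1:82699336-82699585, minus strand): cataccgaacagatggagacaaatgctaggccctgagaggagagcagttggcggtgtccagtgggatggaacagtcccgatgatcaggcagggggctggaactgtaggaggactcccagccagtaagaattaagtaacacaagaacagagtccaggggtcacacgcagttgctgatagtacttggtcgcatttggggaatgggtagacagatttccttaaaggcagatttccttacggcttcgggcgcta
Baat (chr5:68656138-68656387, minus strand): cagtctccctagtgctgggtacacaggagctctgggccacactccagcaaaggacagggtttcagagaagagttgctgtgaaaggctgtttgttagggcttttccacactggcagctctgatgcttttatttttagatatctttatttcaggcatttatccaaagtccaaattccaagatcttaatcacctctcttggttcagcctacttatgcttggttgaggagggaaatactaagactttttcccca
Cyp27a1 (chr9:83713282-83713531, plus strand): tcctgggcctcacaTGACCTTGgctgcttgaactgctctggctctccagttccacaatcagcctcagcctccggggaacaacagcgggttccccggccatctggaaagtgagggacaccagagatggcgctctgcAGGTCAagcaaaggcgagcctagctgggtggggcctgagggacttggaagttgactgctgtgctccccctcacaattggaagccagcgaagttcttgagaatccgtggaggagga
Nr0b2 (chr5:151062910-151063159, plus strand): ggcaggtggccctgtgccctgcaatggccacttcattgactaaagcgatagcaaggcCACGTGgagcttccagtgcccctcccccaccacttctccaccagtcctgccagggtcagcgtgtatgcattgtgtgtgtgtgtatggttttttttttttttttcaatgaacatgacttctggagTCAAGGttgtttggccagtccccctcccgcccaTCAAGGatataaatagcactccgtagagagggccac
Windows were found by symbol for 7 of the 10 genes; Cyp7a1, Cyp7b1 and Nr1h4 were not matched. Both strands were searched, and 33469 promoter windows of the same length give the background. AGGTCA, the hexamer that nuclear receptors bind, lay in the windows of Cyp27a1 and Amacr and in 14.1% of all windows. In Cyp27a1 it lay 115 bases before the start, and again on the opposite strand in the match that begins 236 bases before it. There it is part of the longer LRH-1 type motif CAAGGTCA, which 1.33% of windows hold. The E box CACGTG began 193 bases before the start of Nr0b2 and was in 5.59% of windows. TCAAGG, the core of the LRH-1 site, was added after the sequences had been read; it began 69 and 36 bases before the start of Nr0b2, lay once in the window of Amacr, and was in 12.6% of windows. No window of the 7 genes held the FXR type inverted repeat of AGGTCA with 1 base between (0.0269% of windows), its direct repeat with 1 base between (0.0508%) or the D box TTATGTAA (0.828%), which says only that these letters are not in these windows.

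RNA came from flash-frozen livers of male Fischer 344 rats after 90 days. In the furan experiment 8 rats received 0.03, 8 received 0.12, 7 received 0.5 and 7 received 2.0 mg/kg body weight daily, and 8 controls received dose 0. In the 3-methylfuran experiment groups of 8 rats received 0.02, 0.075 or 1.0 mg/kg body weight daily, beside 8 controls of their own. The labels name each treatment as a diet, without a route or an age. Doses are given in these units throughout. 3-methylfuran libraries were made with the Illumina TruSeq Stranded mRNA kit and furan libraries with the Illumina Stranded mRNA prep, so kit and compound cannot be told apart.

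Counts per rat ran from 11410459 to 27664338 in the furan experiment and from 11084613 to 50047098 in the 3-methylfuran experiment. Levels are in CPM, the count relative to library size, scaled by TMM, an edgeR factor that takes most genes as unchanged; they are not divided by transcript length, so a level is compared only within a gene. Log2 fold changes are dose over controls with their standard error (SE). A gene was called at a Benjamini-Hochberg adjusted p under 0.05 over all genes in edgeR's quasi-likelihood test. The liver label was met: the 8 hepatocyte markers, Alb and Hnf4a among them, summed to between 110700 and 236800 CPM in every rat.

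At the highest dose of each compound most of the pathway stood below control. At furan 2.0, 7 of 10 members were called lower and 0 higher, beside 46.5% of all 12727 genes called, 22.5% lower and 24% higher; the members' median log2 fold change was -0.69, against 0.02 over all genes. At 3-methylfuran 1.0, 7 of 10 were again called lower and 0 higher, beside 43.6% of 11930 genes called, 22.5% lower and 21.2% higher; the median was -0.57, against -0.0014 over all genes. The shared and conjugating enzymes and Cyp27a1 and Nr1h4 were called with both compounds. Cyp7a1 was called only at furan 2.0 and Nr0b2 only at 3-methylfuran 1.0, and the test of those differences is given below. Hepatocyte markers moved at the same doses: 7 of 8 were called lower and 1, Apoa1, higher with either compound, with a median log2 fold change of -0.48 at furan 2.0 and -0.24 at 3-methylfuran 1.0. In whole liver, fewer hepatocytes and less of these RNAs per hepatocyte cannot be told apart.

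**Figure D1:**
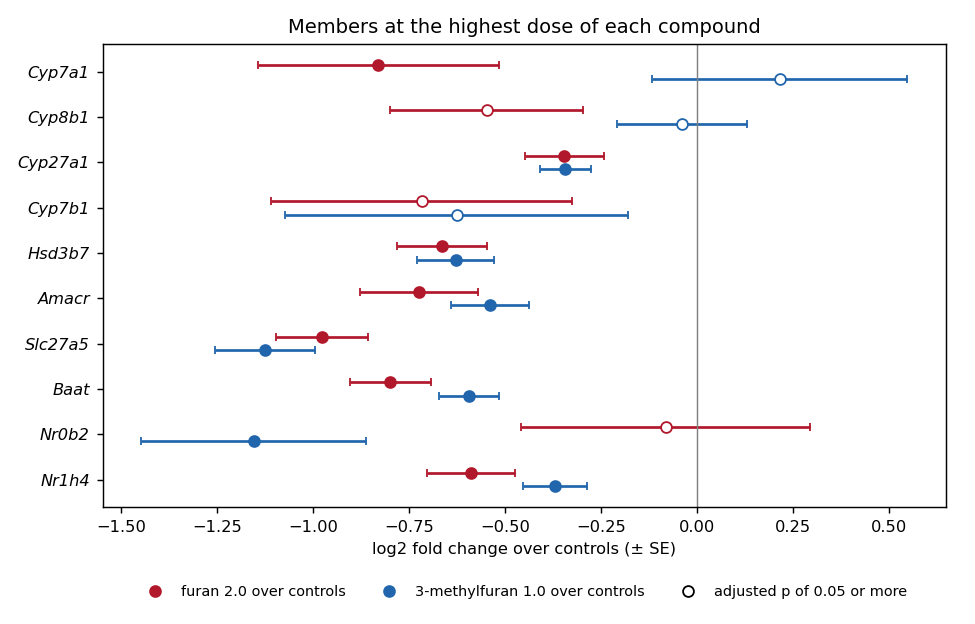
Log2 fold change over controls (± SE, horizontal axis) of the 10 genes at furan 2.0 (red) and 3-methylfuran 1.0 (blue); filled points have an edgeR adjusted p under 0.05. Points of Hsd3b7, Amacr, Slc27a5 and Baat lie left of 0 for both compounds, while Cyp7a1 lies left of 0 only with furan and Nr0b2 lies far left only with 3-methylfuran.

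Cyp7a1, the rate-limiting enzyme of the classic route, lay between 25.5 and 53.8 CPM (median 31.1) at furan 2.0, against 28.4 to 109 CPM (median 61.7) in furan controls. It was below the control mean in 7 of 7 rats, but only 2 rats lay below every control. The log2 fold change was -0.83 ± 0.31 (adjusted p = 0.0291 by edgeR). This call is close to the threshold: it was lost when control 003 or 004, or dosed rat 081, 082, 083 or 085, was left out (adjusted p 0.0523 to 0.072), without the filter on low counts (adjusted p = 0.0546), and with library totals alone in place of TMM (-0.46, adjusted p = 0.167). With 3-methylfuran 1.0, Cyp7a1 lay between 26.9 and 142 CPM (median 54.7), against 24.2 to 86.7 CPM (median 60.0) in controls. Of 8 dosed rats, 1 lay above every control and 0 below, and the log2 fold change of 0.21 ± 0.33 was not called (edgeR adjusted p = 0.635).

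Cyp8b1, which decides how much cholic acid is made, spread widely between rats of a group. At furan 2.0 it lay between 163 and 465.5 CPM (median 249.6), against 231 to 636 CPM (median 374) in controls. The ranges overlap, and the log2 fold change of -0.55 ± 0.25 was not called (adjusted p = 0.072); leaving out control 008 or dosed rat 086 or 092 brought it under the threshold (adjusted p 0.0201 to 0.038). At 3-methylfuran 1.0 its range of 215.5 to 399.9 CPM lay almost within that of the controls, 219 to 410.3 CPM, with a log2 fold change of -0.04 ± 0.17 (adjusted p = 0.875).

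Cyp27a1, the mitochondrial side-chain hydroxylase, opens the alternative route and also serves the classic one. It fell with both compounds. At furan 2.0 it lay between 188 and 332 CPM (median 238), against 280.4 to 375 CPM (median 312) in controls, with 5 of 7 rats below every control and a log2 fold change of -0.35 ± 0.10 (adjusted p = 0.0058). At 3-methylfuran 1.0 it lay between 244 and 305 CPM (median 278), against 283.5 to 422 CPM (median 348) in controls, with 5 of 8 rats below every control and a log2 fold change of -0.34 ± 0.07 (adjusted p = 6.76e-05). Both calls depend on the scaling: with library totals alone, which move the median of all genes by 0.42 at furan 2.0 and 0.25 at 3-methylfuran 1.0, the values were 0.02 (adjusted p = 0.82) and -0.09 (adjusted p = 0.167), still below those medians.

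Cyp7b1, the oxysterol hydroxylase of the alternative route, was the most thinly measured member. Its counts were 60 to 523 per rat in the furan experiment and only 13 to 225 in the 3-methylfuran experiment. It lay between 4.77 and 10.5 CPM (median 6.65) at furan 2.0, against 4.85 to 29.9 CPM (median 9.45) in controls. The control range takes in all but 1 dosed rat, and the log2 fold change of -0.72 ± 0.39 was not called (adjusted p = 0.132). At 3-methylfuran 1.0 it lay between 1.065 and 2.82 CPM, against 1.18 to 4.98 CPM in controls (-0.63 ± 0.45, adjusted p = 0.27).

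**Figure D2:**
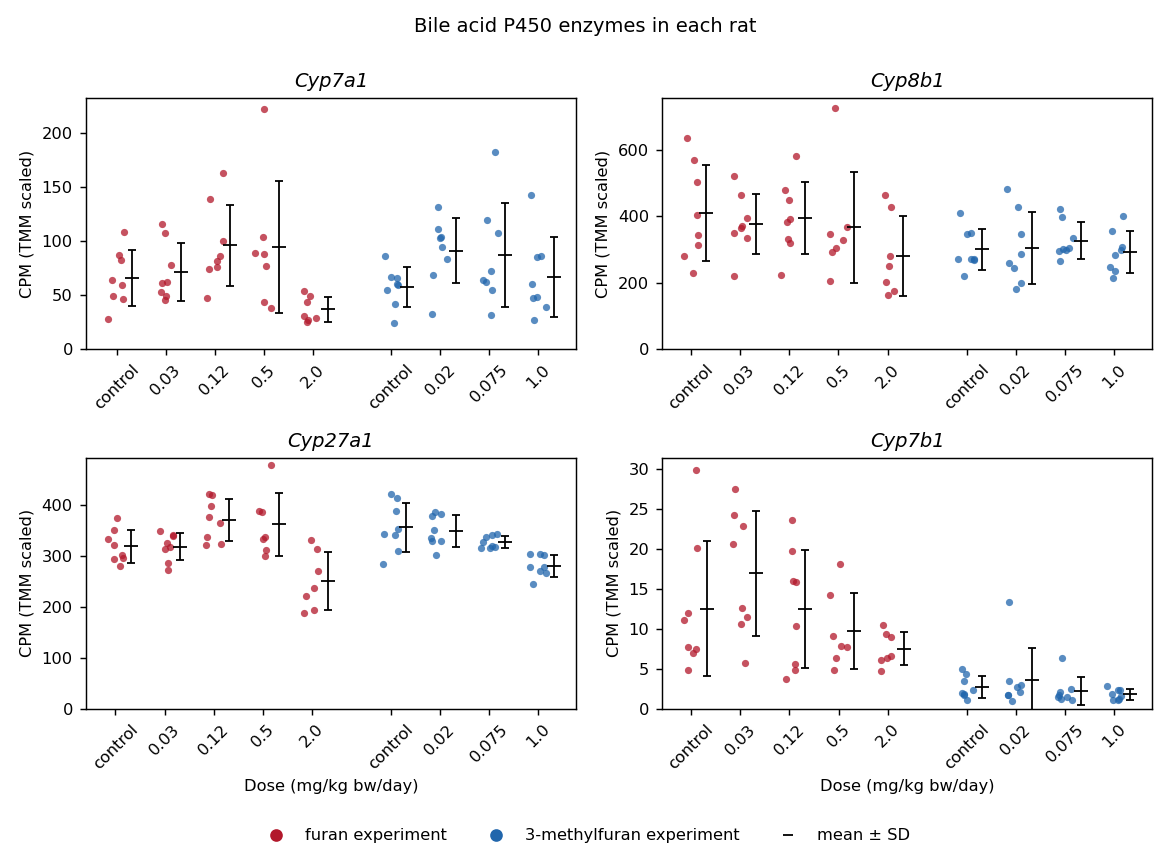
CPM (vertical axis, TMM scaled) of the 4 P450 genes in each rat, by dose from control upward, for the furan (red) and 3-methylfuran (blue) experiments; bars are mean ± SD. Cyp7a1 at furan 2.0 is packed between 25.5 and 53.8 CPM, while the highest rat of each other group is at 86.7 CPM or more, and Cyp7b1 is low throughout the 3-methylfuran experiment.

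Hsd3b7, the steroid dehydrogenase that follows the first ring hydroxylation in both routes, fell with both compounds. It lay between 127 and 195 CPM (median 135) at furan 2.0, against 161 to 276 CPM (median 238) in controls (log2 fold change -0.66 ± 0.12, adjusted p = 1.64e-05). With 3-methylfuran 1.0 the range was 113 to 191.5 CPM (median 141), against 164 to 265 CPM (median 226) in controls (-0.63 ± 0.10, adjusted p = 4.53e-06). All 7 and all 8 dosed rats were below their control mean, though each pair of ranges overlaps through 1 low control.

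Amacr, the racemase that prepares the side chain for peroxisomal shortening, fell likewise. It lay between 197 and 366 CPM (median 229) at furan 2.0, against 354 to 567 CPM (median 433) in controls, so that 6 of 7 dosed rats were below every control (log2 fold change -0.72 ± 0.15, adjusted p = 0.000189). Rats at 3-methylfuran 1.0 had 176 to 262 CPM (median 228), against 265 to 402 CPM (median 324.5) in controls, and the ranges do not overlap (-0.54 ± 0.10, adjusted p = 5.39e-05).

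Slc27a5, the ligase that activates bile acids with coenzyme A before conjugation, had the largest called fall among the enzymes with either compound. It lay between 305 and 641 CPM (median 415) at furan 2.0, against 674.5 to 1042 CPM (median 922) in controls. It lay between 325 and 667 CPM (median 554) at 3-methylfuran 1.0, against 910.3 to 1367 CPM (median 1178) in controls. In neither experiment do the groups overlap; the log2 fold changes were -0.98 ± 0.12 (adjusted p = 2.98e-08) for furan and -1.13 ± 0.13 (adjusted p = 2.45e-08) for 3-methylfuran.

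Baat, which joins the activated acid to taurine or glycine, fell beside it. It lay between 554 and 1098 CPM (median 668.5) at furan 2.0, against 1064 to 1427 CPM (median 1370) in controls. The groups overlap through dosed rat 086 and control 009, and the log2 fold change was -0.80 ± 0.11 (adjusted p = 1.26e-07). At 3-methylfuran 1.0 it lay between 757 and 1024 CPM (median 868), against 1173 to 1590 CPM (median 1296) in controls, with no overlap (-0.59 ± 0.08, adjusted p = 1.35e-07). Ranges without overlap on the lower side were thus found for 1 member at furan 2.0 (Slc27a5; 5.57% of all genes) and for 4 at 3-methylfuran 1.0 (Amacr, Slc27a5, Baat and Nr0b2; 6.08% of all genes).

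**Figure D3:**
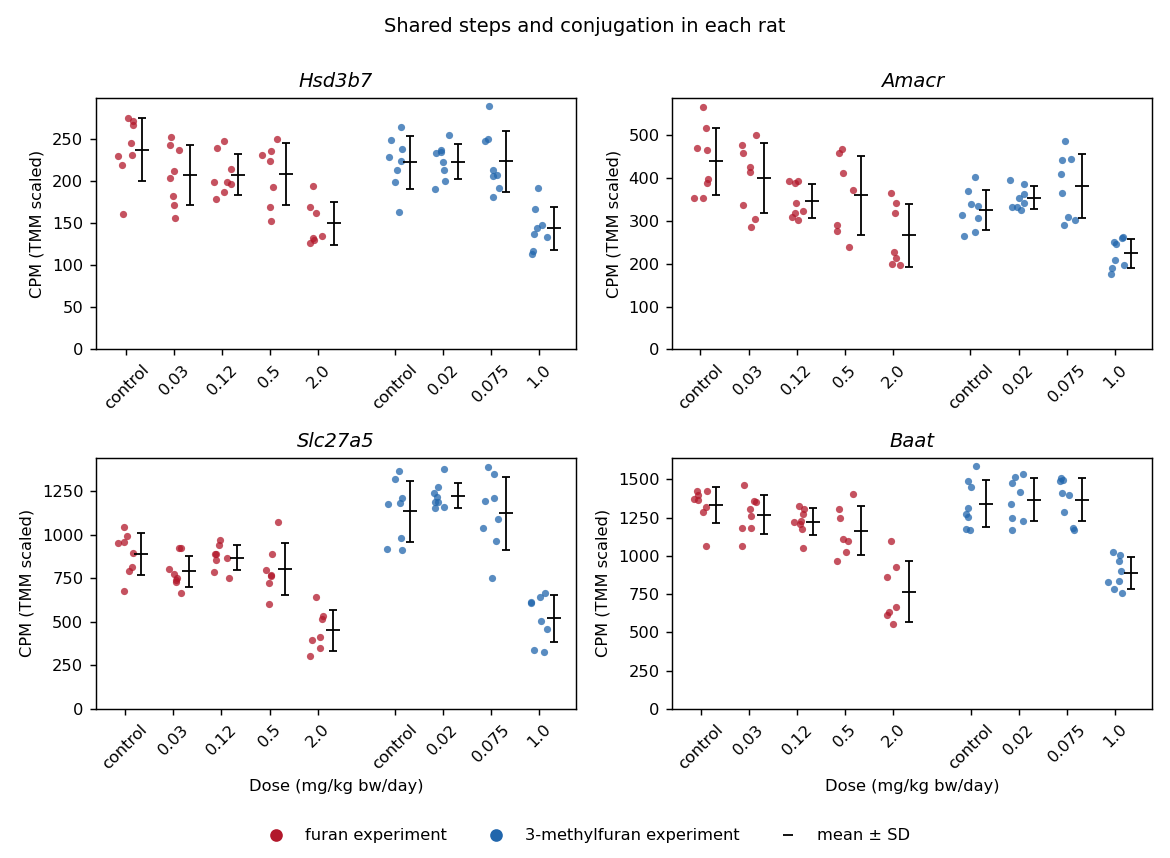
CPM (vertical axis, TMM scaled) of the shared enzymes Hsd3b7 and Amacr and the conjugating enzymes Slc27a5 and Baat in each rat, by dose from control upward; bars are mean ± SD. The lower doses overlap their controls, and Slc27a5 at furan 2.0 (305 to 641 CPM) and 3-methylfuran 1.0 (325 to 667 CPM) lies below each control rat of its experiment.

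Nr0b2 encodes the repressor SHP. In the furan experiment its mean was 35.8 ± 17.3 CPM in controls (SD, n = 8), 68.5 ± 34.1 at 0.03 (n = 8), 76.8 ± 42.5 at 0.12 (n = 8), 76.6 ± 37.1 at 0.5 (n = 7) and 33.8 ± 13.5 at 2.0 (n = 7). In the 3-methylfuran experiment it was 42.3 ± 15.01 CPM in controls, 26.5 ± 13.7 at 0.02, 20.7 ± 8.70 at 0.075 and 19.0 ± 5.33 at 1.0 (SD, n = 8 each). The lower furan doses have higher means than their controls and the 3-methylfuran doses lower ones, with wide spread within groups.

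At furan 2.0 Nr0b2 lay between 14.1 and 58.15 CPM, against 10.1 to 62.8 CPM in controls, with a log2 fold change of -0.08 ± 0.38 (adjusted p = 0.878). Against the same controls the lower furan doses gave 0.94 ± 0.36 at 0.03, 1.10 ± 0.36 at 0.12 and 1.10 ± 0.37 at 0.5, none of which was called (adjusted p = 0.4, 0.115 and 0.0978). Values above every control were seen in 4 rats of each of these dose groups. At 3-methylfuran 1.0 Nr0b2 fell to between 10.2 and 25.1 CPM (median 21.1), against 27.01 to 63.6 CPM (median 37.2) in controls, with no overlap and a log2 fold change of -1.16 ± 0.29 (adjusted p = 0.002). At 3-methylfuran 0.075 the log2 fold change of -1.02 ± 0.29 was not called by edgeR (adjusted p = 0.0712) and was called by DESeq2 (-1.03, adjusted p = 0.0244).

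Nr1h4, the bile acid receptor FXR, fell with both compounds. It lay between 53.2 and 86.4 CPM (median 62.75) at furan 2.0, against 71.1 to 127 CPM (median 101.5) in controls (log2 fold change -0.59 ± 0.11, adjusted p = 5.75e-05). At 3-methylfuran 1.0 it lay in a narrow range of 76.9 to 91.6 CPM (median 81.3), against 84.9 to 126 CPM (median 104) in controls (-0.37 ± 0.08, adjusted p = 0.000397). With library totals alone both values stayed below 0 and lost the call (-0.21, adjusted p = 0.0665, and -0.12, adjusted p = 0.224).

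**Figure D4:**
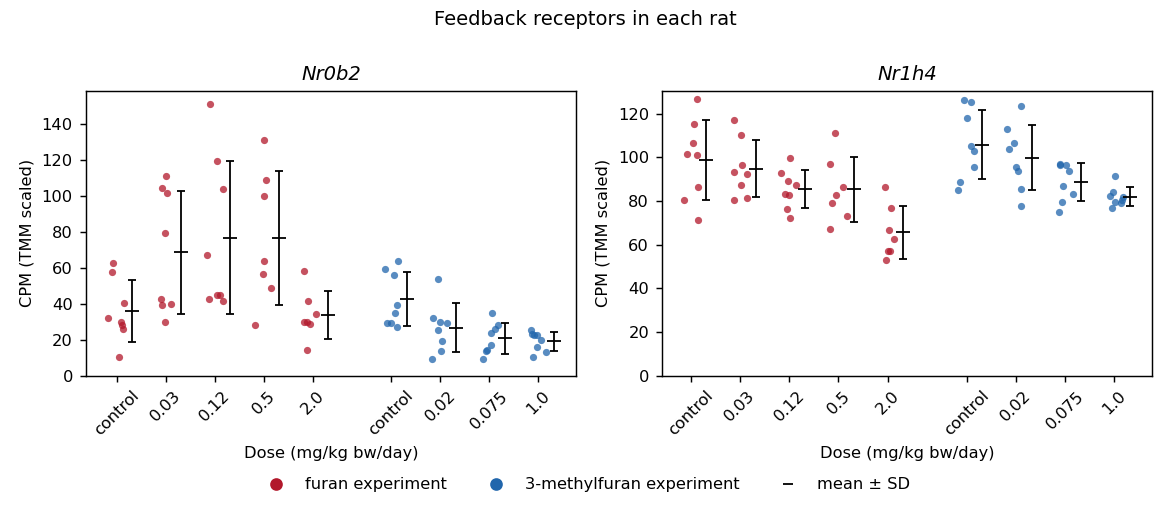
CPM (vertical axis, TMM scaled) of the feedback receptors Nr0b2 and Nr1h4 in each rat, by dose from control upward; bars are mean ± SD. Nr0b2 means are 68.5 to 76.8 CPM at the 3 lower furan doses and 33.8 CPM at furan 2.0, against 35.8 CPM in furan controls, and at 3-methylfuran 1.0 each rat lies below each control.

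The 7 rats at furan 2.0 were not alike. Slc27a5 was 415, 348, 397 and 305 CPM in rats 081, 082, 083 and 085 and 641, 519 and 536 CPM in rats 086, 089 and 092. Cyp7a1 was 27.03, 31.1, 25.5 and 28.7 CPM in the first 4 of these rats and 43.8, 49.3 and 53.8 CPM in the other 3. The first 4 rats were also the 4 lowest for Cyp27a1, Hsd3b7, Amacr, Baat and Nr1h4. They were not the 4 lowest for Cyp8b1, Cyp7b1 or Nr0b2. How many of all genes split the rats in this way was not counted. The TMM factor was higher in each of the first 4 rats (up to 1.40) than in the other 3 (1.02 to 1.20). That factor divides the CPM of every gene in a rat, so the members' values are not independent here. The first 4 rats are those with the highest stellate and myofibroblast sum, so the contrast in that sum follows from the grouping. Stellate and myofibroblast markers (9 listed, 6 of 8 tested called higher and 1, Pdgfrb, lower) summed to 798, 885, 509 and 605 CPM in rats 081, 082, 083 and 085 and to 203.5, 193 and 194 CPM in the other 3. The range over all 7 was 193 to 885 CPM, against 187.5 to 323 CPM in controls. Cholangiocyte markers (10 listed, 7 of 9 tested called higher, 1 lower) summed to between 83.6 and 103.6 CPM in those 4 rats, between 40.8 and 59.0 CPM in the other 3 and between 35.0 and 44.5 CPM in controls. Hepatocyte markers summed to between 110700 and 134600 CPM in the same 4 rats, between 134300 and 169000 CPM in the other 3, and between 185000 and 211900 CPM in controls. No marker of these lists was at 0 in every rat of either group, and the part of other cells in the members' values was not tested.

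At 3-methylfuran 1.0 the stellate sum was 126.9 to 182.5 CPM, against 143.4 to 162.6 CPM in controls, with 0 of 7 tested markers called. The cholangiocyte sum was 38.2 to 52.2 CPM, against 29.01 to 37.8 CPM in controls, with 1 of 4 tested markers called higher (Epcam) and 1 lower (Krt7). The hepatocyte sum was 174300 to 226200 CPM (median 185800), against 211000 to 235800 CPM (median 230000) in controls, with 7 of 8 markers called lower. The part of these cells in the members' values was not tested.

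**Figure D5:**
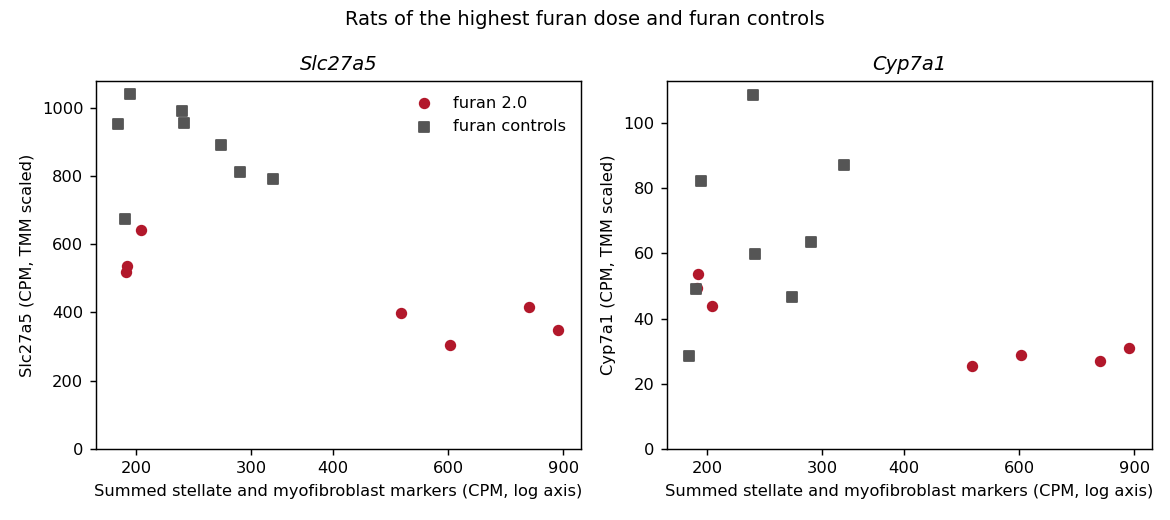
CPM of Slc27a5 (left) and Cyp7a1 (right) on the vertical axes against the summed CPM of stellate and myofibroblast markers (horizontal log axis) in each rat at furan 2.0 (red circles) and each furan control (grey squares). Dosed rats form a set at marker sums of 509 to 885 CPM with the lower gene levels and a set at 193 to 203.5 CPM.

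Below the highest dose few differences exceeded the spread between rats. At furan 0.03, 0.12 and 0.5 edgeR called 0 of 10 members, beside 0.0707%, 1.94% and 3.16% of all genes. At an unadjusted edgeR p under 0.05 there were 1, 3 and 1, Nr0b2 each time and, at 0.12, Cyp27a1 and Amacr. The share of all genes at that unadjusted cut was not counted, so the adjusted shares are not its background. DESeq2 and limma voom called 0 members at each of these doses. At 3-methylfuran 0.02 and 0.075 edgeR called 0 of 10, beside 0.0335% and 1.37% of all genes. There, 1 and 3 members had an unadjusted edgeR p under 0.05, Nr0b2 each time and, at 0.075, Amacr and Nr1h4, again without a count over all genes. DESeq2 called 0 and 1 members, beside 18 of 11004 and 283 of 11930 genes, and limma voom called 0 and 0. Cyp7a1 had log2 fold changes of 0.12 ± 0.30 at furan 0.03, 0.55 ± 0.30 at furan 0.12, 0.53 ± 0.31 at furan 0.5, 0.66 ± 0.33 at 3-methylfuran 0.02 and 0.59 ± 0.33 at 3-methylfuran 0.075, with adjusted p between 0.385 and 0.94.

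Neighbouring doses differed at the top step of each experiment. Between furan 2.0 and furan 0.5, 8 of 10 members were called lower, beside 32.2% of all genes called and 16.5% called lower. Cyp7a1 was lower by 1.36 ± 0.32 on the log2 scale (37.0 ± 11.7 CPM at 2.0 against 94.8 ± 61.2 CPM at 0.5, SD, n = 7 each, adjusted p = 0.0015), and Nr0b2 had a log2 difference of -1.18 ± 0.39 (adjusted p = 0.018). Cyp8b1 and Cyp7b1 were not called. Between 3-methylfuran 1.0 and 0.075, 5 of 10 were called lower, beside 34.9% of all genes called and 18% called lower: Cyp27a1, Hsd3b7, Amacr, Slc27a5 and Baat. Nr0b2 was not among them (-0.14 ± 0.29, adjusted p = 0.76). Between the other neighbouring doses edgeR and DESeq2 called 0 of 10; at an unadjusted p under 0.05 there was 1 between furan 0.12 and 0.03 (Cyp27a1), 0 between furan 0.5 and 0.12 and 1 between 3-methylfuran 0.075 and 0.02 (Nr1h4). All genes called there by edgeR at the adjusted threshold were 0.0707%, 0 and 0.0335%, and the share at the unadjusted cut was not counted.

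A linear term in dose was called lower for 9 of 10 members with furan, Nr0b2 excepted (adjusted p = 0.0848), beside 52% of all genes called and 25.3% called lower. Per mg/kg body weight per day the log2 slope was -0.53 ± 0.16 for Cyp7a1, -0.46 ± 0.17 for Cyp7b1, -0.46 ± 0.05 for Slc27a5 and -0.21 ± 0.05 for Cyp27a1. On the rank of the dose, edgeR no longer called the furan trend of Cyp7a1 (adjusted p = 0.54), Cyp8b1 (0.11) or Cyp27a1 (0.298). Cyp7a1 means did not fall steadily: 65.7 CPM in furan controls, 71.5 at 0.03, 95.9 at 0.12, 94.8 at 0.5 and 37.0 at 2.0. With 3-methylfuran 7 of 10 were called with a falling slope, beside 48% of all genes called and 24.2% called lower. Among those called, Slc27a5 had a slope of -1.19 ± 0.12. The trends rest on the highest dose: without that group 0 members were called in either experiment, and over all genes 161 of 12380 were called with furan and 76 of 11553 with 3-methylfuran.

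The compounds were set side by side at doses that do not match, so each difference is also one of dose, and of experiment and kit. The effect of furan 2.0 minus that of 3-methylfuran 1.0 was called for 0 of 10 members by edgeR and by limma voom. Of all 12941 genes, edgeR called 7.22%. At an unadjusted edgeR p under 0.05 there were 2 members, and the share of all genes at that cut was not counted. For Cyp7a1 the difference of log2 fold changes was -1.05 ± 0.46 (95% interval -1.97 to -0.13, adjusted p = 0.151) and for Nr0b2 it was 1.06 ± 0.48 (interval 0.09 to 2.03, adjusted p = 0.169). For enzymes that fell with both compounds the intervals included 0: -0.26 to 0.24 for Cyp27a1, -0.36 to 0.27 for Hsd3b7, -0.57 to 0.18 for Amacr, -0.21 to 0.49 for Slc27a5 and -0.48 to 0.05 for Baat. For Cyp7b1 the interval ran from -1.34 to 1.16, so differences of either sign of more than a log2 unit remain possible.

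Furan 0.5 is the dose nearer to 3-methylfuran 1.0 from below. Its log2 fold change was called above that of 3-methylfuran 1.0 for 5 of 10 members and below it for 0. Of all genes, 21.4% were called and 10.8% called above. The difference was 2.25 ± 0.48 for Nr0b2 (interval 1.28 to 3.22, adjusted p = 0.000431), 0.97 ± 0.18 for Slc27a5, 0.52 ± 0.12 for Cyp27a1, 0.43 ± 0.16 for Hsd3b7 and 0.39 ± 0.13 for Baat. At furan 0.5 Slc27a5 itself was at -0.15 ± 0.12 against its controls (edgeR adjusted p = 0.558), while Nr0b2 was at 1.10 ± 0.37 there and at -1.16 ± 0.29 at 3-methylfuran 1.0. Hsd3b7, Baat and Cyp27a1 were at -0.19, -0.19 and 0.18 at furan 0.5, none called, and at -0.63, -0.59 and -0.34 at 3-methylfuran 1.0. For the 4 enzymes the difference thus stands beside a fall with 3-methylfuran, not a called rise with furan.

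As a description of the balance between routes, the log2 ratio of Cyp7a1 to Cyp7b1 counts was 2.28 ± 0.53 at furan 2.0 (SD, n = 7), against 2.52 ± 1.20 in controls (n = 8), and 5.10 ± 0.77 at 3-methylfuran 1.0, against 4.44 ± 0.79 in controls (n = 8 each). The log2 ratio of Cyp7a1 to Cyp27a1 was -2.79 ± 0.29 at furan 2.0, against -2.38 ± 0.60 in controls, and -2.24 ± 0.79 at 3-methylfuran 1.0, against -2.70 ± 0.46 in controls. The ratio of Cyp8b1 to Cyp7a1 was 2.87 ± 0.40 at furan 2.0, against 2.67 ± 0.51 in controls, and 2.28 ± 0.69 at 3-methylfuran 1.0, against 2.45 ± 0.54 in controls. Each of these differences is smaller than the SD of at least 1 of the groups compared. The ratios hold within a gene pair and an experiment only, since gene lengths and kits differ.

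Most other enzymes of the pathway that were tested were also called lower with furan. Of 9 further synthesis genes tested (11 listed), 6 were called lower and 0 higher at furan 2.0 (median -0.46), and 5 lower and 0 higher at 3-methylfuran 1.0 (median -0.31), beside 22.5% of all genes called lower at either dose. Acot8, Akr1c14 and Abcd3 were called at neither, with log2 fold changes of -0.03, -0.11 and -0.20 at furan 2.0 and 0.02, 0.14 and 0.05 at 3-methylfuran 1.0. Cyp39a1, a hydroxylase of 24-hydroxycholesterol, fell by 0.71 ± 0.09 with furan and by 0.31 ± 0.06 with 3-methylfuran on the log2 scale. Slc27a2, a very-long-chain acyl-CoA synthetase, fell by 0.54 ± 0.08 and by 0.36 ± 0.06, and Scp2, a peroxisomal thiolase and sterol carrier, fell by 0.52 ± 0.10 and by 0.37 ± 0.07. The peroxisomal enzyme gene Hsd17b4 (-0.42 ± 0.05) and the reductase gene Akr1d1 (-0.40 ± 0.06) were among the largest falls with 3-methylfuran.

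Transporters moved both ways. Of 13 tested (15 listed), 5 were called higher and 6 lower at furan 2.0, and 7 higher and 6 lower at 3-methylfuran 1.0, beside 24% of all genes called higher and 22.5% lower at furan 2.0, and 21.2% higher and 22.5% lower at 3-methylfuran 1.0. Abcc3, an efflux pump of the sinusoidal membrane, rose by 2.40 ± 0.20 with furan (17.3 ± 5.63 CPM at 2.0, n = 7, against 3.26 ± 0.80 CPM in controls, n = 8, SD) and by 2.69 ± 0.42 with 3-methylfuran (30.1 ± 17.4 CPM at 1.0, against 4.78 ± 3.46 CPM in controls, n = 8 each). The sterol exporter genes Abcg5 and Abcg8 rose by 1.91 ± 0.40 and 1.67 ± 0.61 with furan, and by 1.71 ± 0.43 and 1.74 ± 0.56 with 3-methylfuran. Among uptake carriers of the organic anion family, Slco1a1 fell by 0.98 ± 0.12 and by 0.91 ± 0.11, Slco2b1 by 0.97 ± 0.08 and by 0.75 ± 0.07, and Slco1a4 by 0.81 ± 0.12 and by 0.71 ± 0.14. The main bile acid importer and canalicular exporter were picked out after their values were seen: Slc10a1 fell by 0.69 ± 0.11 and by 0.45 ± 0.07, and Abcb11, an exporter that went the other way from Abcc3, fell by 0.60 ± 0.12 and by 0.42 ± 0.10.

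Of 16 regulators tested (18 listed), 1 was called higher and 8 lower at furan 2.0, and 1 higher and 10 lower at 3-methylfuran 1.0, beside 46.5% and 43.6% of all genes called. Counting both directions, the share of regulators called at furan 2.0 is near that of all genes. By direction, 24% of all genes were called higher and 22.5% lower at furan 2.0, and 21.2% higher and 22.5% lower at 3-methylfuran 1.0. The regulators called were mostly lower with either compound. The coactivator gene Ppargc1a rose by 1.18 ± 0.25 and by 0.78 ± 0.22. Fgfr4, the hepatocyte receptor for the gut signal that represses Cyp7a1, fell by 0.61 ± 0.09 and by 0.36 ± 0.07. With furan the transcription factor gene Onecut1 (-1.29 ± 0.47) and the lipid receptor gene S1pr2 (-0.99 ± 0.24) had the largest falls; with 3-methylfuran these were the nuclear receptor genes Nr1i3 (-1.02 ± 0.20), Rxra (-0.70 ± 0.07) and Nr1i2 (-0.52 ± 0.06). Rxra is the partner with which FXR binds DNA. Clock genes were tested because the transcription factor Dbp drives Cyp7a1 over the day in the rat. Of 13 tested (15 listed), 4 were called higher and 5 lower at both highest doses, beside 46.5% of all genes called at furan 2.0 and 43.6% at 3-methylfuran 1.0. Dbp lay between 4.79 and 11.5 CPM at furan 2.0, against 2.90 to 4.21 CPM in controls (1.47 ± 0.19), and between 5.13 and 9.37 CPM at 3-methylfuran 1.0, against 1.32 to 3.32 CPM in controls (1.57 ± 0.16). Nr1d1 and Per3 also rose, by 2.77 ± 0.34 and 2.10 ± 0.23 with furan and by 1.93 ± 0.34 and 2.36 ± 0.20 with 3-methylfuran; Npas2 and Hlf fell, by 1.06 ± 0.12 and by 0.72 ± 0.12 with furan and by 0.96 ± 0.10 and by 0.84 ± 0.12 with 3-methylfuran. Nfil3 fell by 0.94 ± 0.16 with furan and by 0.63 ± 0.15 with 3-methylfuran. Cry1 fell by 0.63 ± 0.12 with 3-methylfuran and was not called with furan (-0.28 ± 0.16, adjusted p = 0.158).

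Pairs of genes were compared across rats after removing group means. Over 6 pairs in each experiment, 12 in all, 0 passed the permutation test at an adjusted p of 0.05 and 0 at an unadjusted p under 0.05. Cyp7a1 and its repressor gene Nr0b2 gave r = 0.24 over 38 furan rats (permutation p = 0.175, rho = 0.20 with permutation p = 0.25, adjusted p = 0.419, r = 0.18 without the 2 farthest rats). Over 32 3-methylfuran rats they gave r = 0.28 (permutation p = 0.139, rho = 0.28 with permutation p = 0.14, adjusted p = 0.419, r = 0.20 without the 2 farthest rats). Cyp8b1 and Nr0b2 gave r = -0.25 (permutation p = 0.154, rho = -0.23 with permutation p = 0.188, adjusted p = 0.419, r = -0.15 without the 2 farthest) and r = -0.31 (permutation p = 0.135, rho = -0.30 with permutation p = 0.118, adjusted p = 0.419, r = -0.35 without the 2 farthest). Without the highest dose group Cyp8b1 and Nr0b2 gave r = -0.445 over 31 furan rats and r = -0.344 over 24 3-methylfuran rats. Cyp7a1 and Nr0b2 gave 0.211 and 0.241 there, and no test was run on these values. The smallest permutation p of the 12 was 0.0573, for Cyp7a1 with Dbp over the 3-methylfuran rats.

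Among 7655 genes with a mean of at least 5 CPM, the 5 most like each of 3 members were found as a description. The measure was the smaller of the Pearson correlations over the 38 furan and over the 32 3-methylfuran rats. Group means were not removed here, so differences between doses enter these values. The rats also share libraries and depth across genes. Nr0b2 was most like Cdc42ep4 (r = 0.84 and 0.72), Arrdc2 (0.73 and 0.70), Ppp1r3c (0.75 and 0.70), Mfsd2a (0.73 and 0.67) and Insig1 (0.60 and 0.61). Cyp7a1 was most like Coq10a (0.56 and 0.50), Rmdn2, Eva1a, Crb3 and Lrig3, with smaller correlations of 0.46 to 0.50. Cyp8b1 was most like Copg2 (0.57 and 0.51), Pipox, Slc38a3, Mocs1 and Aldh9a1, with smaller correlations of 0.46 to 0.51.

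In the authors' deposited table for furan, where a decrease is written as the negative reciprocal, the fold change at 2.0 was -1.55 for Cyp7a1 (adjusted p = 0.0222), -1.94 for Slc27a5 (2.35e-14) and -1.03 for Nr0b2 (0.877). In the authors' deposited table the fold change of Nr0b2 was 1.005 at furan 0.03 (adjusted p = 0.298), 1.71 at furan 0.12 (0.0575) and 1.67 at furan 0.5 (0.0596). Deposited values at lower doses could lie much nearer to no change than those of edgeR. Cyp7a1 at furan 0.5 had a deposited fold change of 1.022, against a log2 fold change of 0.53 in edgeR. Sizes are therefore not compared between them, and the cause was not tested. For 3-methylfuran, where the authors' deposited table gives plain ratios, Nr0b2 had 0.56 at 0.075 (adjusted p = 0.0257) and 0.50 at 1.0 (0.0004), and Slc27a5 had 0.47 at 1.0 (1.25e-16). The Nr0b2 ratio at 0.075 is the member value on the other side of the threshold from the edgeR test above.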

How the data were processed

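Liver RNA-seq of 70 rats was deposited as 172 sequencing runs. Per the submitters' processing notes, reads were handled with STAR 2.7.1a, featureCounts 2.0.0 and DESeq2 1.26.0 on Rnor_6.0; the deposited tables hold counts per Ensembl gene. The authors' deposited comparison tables give a signed fold change for furan, a ratio for 3-methylfuran, and an adjusted p-value for each. Runs of a rat (2 for furan, 3 for 3-methylfuran) were summed, since they differed by no more than sampling noise (chi-square per degree of freedom 0.96 to 1.05, and at least 6.7 between rats of a group). The labels describe controls of both experiments alike; they were placed by the number format of their titles, which each count table's column names share.

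Counts were fitted per experiment with edgeR 4.0.16 in R 4.3.3: filterByExpr (minimum count 10), TMM, robust quasi-likelihood F test, Benjamini-Hochberg over all genes, threshold 0.05, SE as the estimate over the square root of F. Differences between compounds came from a fit of all rats with 61 residual degrees of freedom. limma 3.58.1, DESeq2 1.42.0, other scalings, no filter, 1 run per rat and leaving out rats were alternatives. Correlations of the tested pairs used log2 CPM (prior count 2) centred on group means and 100000 permutations, 2-sided. The most alike genes were found on log2 CPM without centring. Count ratios used a pseudocount of 0.5. P-values of the fits set the difference between groups against the spread between rats. The depth of 11084613 to 50047098 counts per rat left Cyp7b1 with the fewest counts of the members. The edgeR test of the highest dose against controls was checked on simulated counts with the same dispersion for every gene. The permutation test was checked on made data with a known correlation. Dose trends, compound differences, DESeq2 and limma voom were not checked in this way.

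Members, gene lists and tests were chosen with earlier results of these data known. All 10 members are named. Of other lists, the rule was to name Dbp and, each way, at most 3 called genes that changed most at a highest dose. Outside that rule Slc10a1 and Abcb11 were picked after their values were seen. The uncalled Acot8, Akr1c14 and Abcd3 and a few marker genes are also named outside it. The list symbols Slc51b, Klb, Timd4, Pecam1 and Cdh1 were not matched.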

Additional observations from a re-analysis of the deposited data

Results flagged for a closer look

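In 5 of 90 tests, 1 for each member and group, the highest or lowest rat stood apart from the rest of its group by Dixon's criterion; chance flags about 1 in 20 such groups. Control rat 009 of the furan experiment was the lowest for Hsd3b7 (160.9 CPM, next 219.5 CPM) and for Baat (1064 CPM, next 1286 CPM). At 3-methylfuran 0.02, 1 rat was the lowest for Cyp7a1 (32.8 CPM, next 68.7 CPM) and the highest for Cyp7b1 (13.4 CPM, next 3.49 CPM). At 3-methylfuran 0.075, 1 rat was the highest for Cyp7b1 (6.44 CPM, next 2.48 CPM).

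The effect of furan 0.5 over its controls differed from that of 3-methylfuran 1.0 over its own for 5 members, by a test of the difference itself: Nr0b2 (2.25 on the log2 scale), Slc27a5 (0.97), Cyp27a1 (0.52), Hsd3b7 (0.43) and Baat (0.39). Dose, experiment and kit differ with the compound and cannot be told apart in these values.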

How the results depend on the processing

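Of 67 counts of called members under another setting, 63 stayed within 1.5 times the count reported. Most of the 67 belong to comparisons with 0 members called, where a count that stays at 0 is among the 63. Outside that range were furan 2.0 with library totals alone (4 of 10, beside 9440 of 12727 genes) and 3-methylfuran 0.075 with DESeq2 (1 of 10, beside 283 of 11930 genes). So were the dose trends without the highest dose (0 for furan, beside 161 of 12380 genes, and 0 for 3-methylfuran, beside 76 of 11553). Within it were the furan trend by dose rank, which lost Cyp7a1, Cyp8b1 and Cyp27a1, and 3-methylfuran 1.0 with library totals alone, which lost Cyp27a1 and Nr1h4. Leaving out 1 rat gave 6 to 8 called members at furan 2.0 and 7 to 7 at 3-methylfuran 1.0. Over all genes it gave 5353 to 6355 and 4879 to 5196 calls. Slc27a5, Baat, Hsd3b7 and Amacr kept their calls at both highest doses under all 22 and 23 alternatives. No paired analysis was possible because no 2 groups share a rat number.

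Sign changes were as follows, on the log2 scale. With library totals alone Cyp27a1 was 0.012 at furan 0.03 and 0.020 at furan 2.0, Nr0b2 0.32 at furan 2.0, Hsd3b7 -0.0053 at 3-methylfuran 0.02, Slc27a5 0.018 at 3-methylfuran 0.075 and Cyp8b1 0.21 at 3-methylfuran 1.0; that scaling shifts all values of a comparison together. With the first run alone Cyp27a1 was 0.0078 at furan 0.03 and Cyp8b1 0.019 at 3-methylfuran 1.0. DESeq2 gave Cyp7b1 -0.0085 at furan 0.12, no filter gave Hsd3b7 -0.0013 and limma voom Cyp8b1 -0.039 at 3-methylfuran 0.02, and limma voom gave 0.11 for the compound difference of Cyp7b1. Leaving out 1 rat at a time gave -0.24 to 0.076 for Nr0b2 at furan 2.0, above 0 without control 008 (0.049), control 009 (0.076) or dosed rat 083 (0.070). At 3-methylfuran 1.0 it gave -0.12 to 0.036 for Cyp8b1 and -0.040 to 0.34 for Cyp7a1. Trends by dose rank gave 0.026 for Nr0b2 with furan and 0.051 for Cyp7a1 with 3-methylfuran. Without the highest dose the furan slopes of Cyp7a1, Nr0b2 and Cyp27a1 were 0.89, 1.14 and 0.34, and the 3-methylfuran slopes of Hsd3b7, Amacr, Cyp7a1, Baat and Cyp8b1 were 0.084, 2.80, 5.50, 0.32 and 1.66. Correlations changed sign to 0.078 and 0.33 (Nr0b2 with Nr1h4, not centred, furan and 3-methylfuran), -0.043 (Cyp7a1 with Cyp8b1, without the highest 3-methylfuran dose), 0.21 and 0.033 (Cyp27a1 with Cyp7b1, not centred and without that dose) and -0.0038 (Cyp7a1 with Dbp, not centred). Apart from the scaling and from the smaller dose range of the trends, the cause was not tested.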

Other observations

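Markers of hepatocyte zones and of other liver cells were tested at the highest doses, where 46.5% of all genes were called at furan 2.0 and 43.6% at 3-methylfuran 1.0. Of 9 periportal markers tested, 7 were called lower at furan 2.0 (median log2 fold change -0.52) and 4 lower at 3-methylfuran 1.0 (median -0.25), with 0 higher in either. Of 10 pericentral markers, 5 were called lower and 0 higher at furan 2.0 (median -0.50), and 6 lower and 3 higher at 3-methylfuran 1.0 (median -0.43). Macrophage markers gave 2 higher and 0 lower of 9 at furan 2.0, and 0 of 8 were called at 3-methylfuran 1.0. Endothelial markers gave 2 lower of 5 at furan 2.0 and 1 lower of 5 at 3-methylfuran 1.0. Their part in the values of the bile acid genes was not tested.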
